A study of Mus musculus with 35 samples.

Results

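A set of 9 enzymes of the citrate cycle was followed through 35 RNA-seq libraries of mouse embryonic fibroblasts (MEFs) that kept, lost or regained NELFB, a subunit of the negative elongation factor (NELF) that holds RNA polymerase II (Pol II) in its paused state near promoters. The members were taken by name, as core enzymes of the cycle, and are 9 of the 24421 genes in each count table: Cs, Idh3a, Idh3b, Ogdh, Dlst, Sucla2, Suclg1, Fh1 and Mdh2. The parental cells were immortalized MEFs with 1 null and 1 floxed Nelfb allele, so every group, controls included, already lacked 1 allele. In the 20 populations, these cells carried an empty lentiviral vector (EV) or a lentivirus for wild-type NELFB (WT), for the mutant MT194, for the mutant MT486, or for the double mutant of both (DMT). MT194 replaces the residues VKR by alanines and does not bind NELFA and NELFC; MT486 replaces NKN and does not bind NELFE. Each of these 5 lines was sampled 7 days after infection with an adenovirus for Cre and GFP (Ad-Cre, which deletes the floxed allele) or for GFP alone (Ad-GFP), with 2 biological replicates a group. The other 15 libraries came from single clones isolated after Ad-Cre, 3 a group. They carried Δ-C60, WT(N48), WT, MT486 or MT194, where Δ-C60 lacks the C-terminal end of NELFB. The sample labels give pLenti for the last 3 of these and pBabe, a retroviral vector, for WT(N48) and Δ-C60, whereas the study's methods describe lentiviral infection for Δ-C60 too, and which holds was not settled here. Each clone is the progeny of 1 cell, so differences between clones of a group include clonal variation.

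The citrate cycle runs in the mitochondrial matrix and oxidizes the acetyl group of acetyl-CoA to carbon dioxide, passing electrons to NADH and to ubiquinone for the respiratory chain. Citrate synthase (Cs) joins acetyl-CoA to oxaloacetate, isocitrate dehydrogenase 3 (whose subunits include Idh3a and Idh3b) and the 2-oxoglutarate dehydrogenase complex (Ogdh and Dlst) release carbon dioxide, succinyl-CoA ligase (Suclg1 with Sucla2 or Suclg2) makes ATP or GTP, and fumarase (Fh1) and malate dehydrogenase (Mdh2) return the carbon to oxaloacetate. In growing fibroblasts the cycle also feeds biosynthesis, since citrate leaves the matrix and is cleaved in the cytosol for lipid synthesis.

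In the GRCm38 (mm10) annotation the members lie on 9 chromosomes. Cs is at chr10:128337734-128362479 (plus strand), Idh3a at chr9:54586334-54604661 (plus), Idh3b at chr2:130279309-130284547 (minus), Ogdh at chr11:6291633-6356642 (plus), Dlst at chr12:85110833-85134845 (plus), Sucla2 at chr14:73525319-73596142 (plus), Suclg1 at chr6:73248382-73276911 (plus), Fh1 at chr1:175600374-175625635 (minus) and Mdh2 at chr5:135778480-135790398 (plus). Reads were counted over the exons of each whole gene. Idh3b shares 5 exonic bases with the opposite-strand gene Nop56, and whether counting used strand is not given in the sources used here.

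RefSeq promoter windows (GRCm38.p6, 250 bases before to 50 after a transcript's start) were matched for 8 of the 9 members, all but Idh3a. Ogdh had 6 windows, for transcripts that start from 36 bases before to 946 bases after the GENCODE start of the gene, and the others had 1 each. The Sucla2 window belongs to a start 27467 bases inside the GENCODE gene, and those of the other 6 genes to starts within 169 bases of the GENCODE one. The 250 bases before the start are printed for Fh1, Cs and Dlst, which passed a test in at least 1 comparison. The GENCODE model of the same gene does not reach into these bases. Transcripts of neighbouring genes were not looked for there. Capitals mark CCAAT or its reverse ATTGG, the box bound by the factor NF-Y, and the sequences read 5′ to 3′ on the gene's strand:
Fh1, chr1:175625636-175625885, minus strand: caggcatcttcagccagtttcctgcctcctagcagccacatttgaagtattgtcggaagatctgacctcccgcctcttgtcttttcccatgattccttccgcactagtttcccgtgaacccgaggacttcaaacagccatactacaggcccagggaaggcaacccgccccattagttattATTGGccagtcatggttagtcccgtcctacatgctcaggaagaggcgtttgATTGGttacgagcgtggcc
Cs, chr10:128337477-128337726, plus strand: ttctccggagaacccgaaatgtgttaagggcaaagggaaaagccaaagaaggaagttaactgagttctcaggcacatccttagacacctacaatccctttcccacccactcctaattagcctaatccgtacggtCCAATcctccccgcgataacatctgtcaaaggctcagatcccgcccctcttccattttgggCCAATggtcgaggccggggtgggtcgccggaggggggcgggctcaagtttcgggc
Dlst, chr12:85110583-85110832, plus strand: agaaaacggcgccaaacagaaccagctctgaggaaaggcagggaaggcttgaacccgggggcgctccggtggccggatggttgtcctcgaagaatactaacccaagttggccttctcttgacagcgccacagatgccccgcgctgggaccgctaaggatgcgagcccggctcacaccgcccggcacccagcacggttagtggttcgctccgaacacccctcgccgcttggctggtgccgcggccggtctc
The Fh1 and Cs windows each held the box at 2 places, and the Dlst window held none. Over the full 300 bases and on both strands, CCAAT occurred in 4 of the 8 matched members (Fh1, Idh3b, Cs and Ogdh) against 41.1% of all 27025 genes with a promoter in the table. A gene counts as holding a motif when any of its windows does, among members and all genes alike. The NRF1 core GCGCATGC occurred in 1 member (Ogdh; 3.05% of all genes), the ETS core CCGGAAG in 2 (Idh3b and Dlst; 9.93%), the E box CACGTG in 1 (Ogdh; 8.09%), the YY1 core ATGGCGGC in 2 (Ogdh and Sucla2; 2.6%), and the ERR element TCAAGGTCA in 0 (0.466%). The Ogdh matches to NRF1, the E box and YY1 lie only in windows of starts 537 to 946 bases inside the gene, and the Sucla2 match to YY1 only in the window noted above. These are matches of letters and not measured binding.

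Nelfb RNA followed the labels in the populations. It was 46.1 and 39.5 CPM (TMM-normalized counts per mega-read) in EV with Ad-GFP and 7.97 and 5.46 CPM in EV with Ad-Cre, a log2 fold change of -2.67 (SE 0.22, adjusted p = 2.53e-05). Because reads of the ectopic mouse NELFB count towards the same gene, Nelfb stayed at 60.5 to 208 CPM in the 4 other lines after Ad-Cre and at 61.6 to 97.5 CPM in them with Ad-GFP. The RNAs of the other subunits did not pass in EV, with log2 fold changes of -0.13 for Nelfa (adjusted p = 0.748), 0.13 for Nelfcd (adjusted p = 0.639) and -0.25 for Nelfe (adjusted p = 0.571). Among the clones, Nelfb was at 10.3, 109 and 15.5 CPM in the libraries labelled WT, against 135 to 216 CPM in MT194 and MT486 clones, 56.3 to 241 CPM in WT(N48) clones and 208 to 247 CPM in Δ-C60 clones. Clones 1 and 3 labelled WT thus held 200 and 306 Nelfb reads where clone 2 held 2637, which goes against the label of a line with ectopic WT NELFB, and calls against the WT clones are given with and without both. MT486 clones 1 and 2 also stood apart: their counts differed by more than sampling noise, but with a chi-square per degree of freedom of 4.85 against 30.7 to 328 for every other pair of libraries in a group. Because all clones share 1 estimate of spread, calls between clones are given also with these 2 libraries summed as 1.

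Population libraries held 17969149 to 29080007 reads on genes and clone libraries 18413284 to 27816723, and the lowest count of any member in any library was 888 reads. Markers of fibroblasts were abundant: the 10 genes of the list summed to 22334 and 32292 CPM in EV with Ad-GFP and to 22075 and 34445 CPM with Ad-Cre, with Fn1 the most abundant, although Thy1 was at 0 in both Ad-GFP libraries of EV. In the same EV libraries, epithelial markers summed to 1.92 to 4.78 CPM, endothelial markers to 0.295 to 1.18 CPM and blood cell markers to 2.21 to 5.56 CPM. The cells were therefore fibroblasts by their RNA, with markers of those other types near 0. In bulk libraries, fewer cells of a kind and less RNA per cell cannot be told apart.

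Mdh2 was the most abundant member per length. In EV with Ad-GFP, levels in CPM per kilobase of merged exons (lowest and highest of 2 libraries) were 57.8 and 67.0 for Mdh2, above all other members without overlap. Ogdh followed with a mean of 39.3, Cs with 38.7 and Idh3b with 36.2 CPM per kilobase, and these 3 overlapped. Sucla2 (21.6) and Fh1 (19.9) overlapped each other and stood above Idh3a (15.01), Dlst (14.3) and Suclg1 (13.3), which did not differ beyond their spread. On the longest transcript instead of merged exons, Mdh2 stayed first and Suclg1 last, but the order between them changed. Cs (74.5 CPM per kilobase) and Idh3b (60.5) then stood above Ogdh (52.0), Dlst (42.5) above Sucla2 (38.7), and Idh3a (29.5) above Fh1 (25.6).

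**Figure D1:**
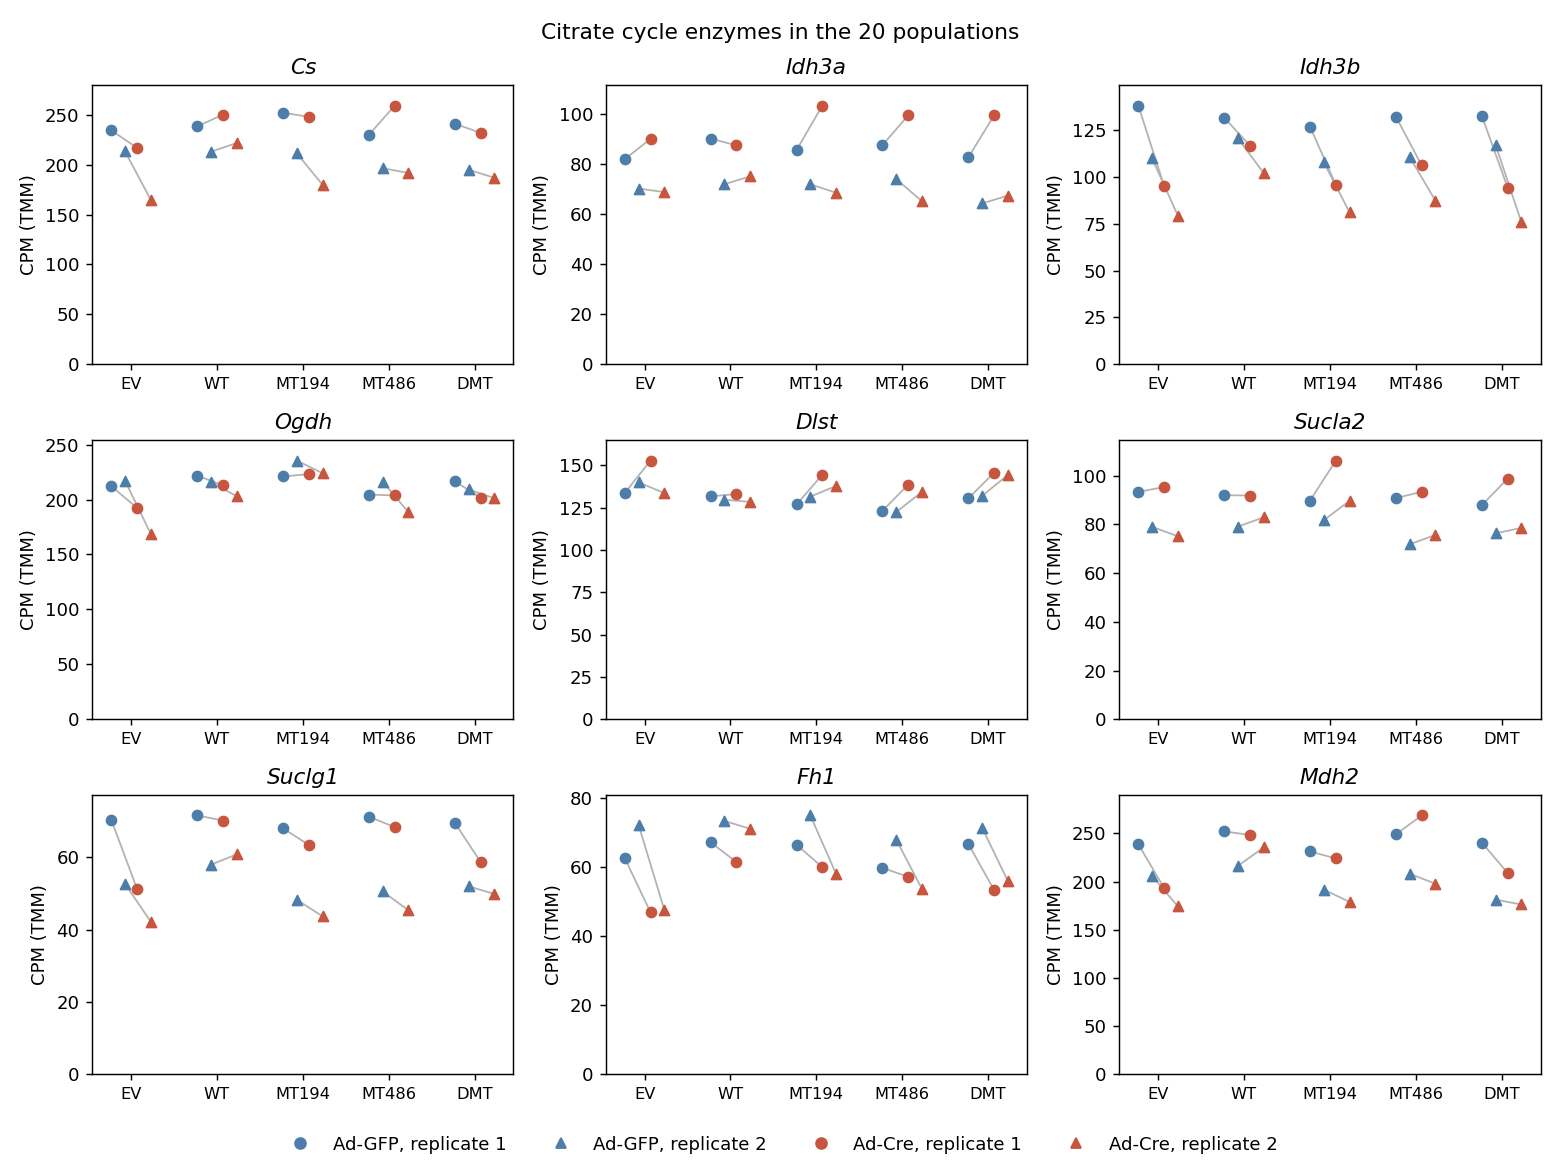
Levels of the 9 members in the 20 populations, in CPM after TMM scaling on a linear axis from 0, by construct; blue is Ad-GFP, red is Ad-Cre, circles are replicate 1, triangles are replicate 2, and lines join the libraries with the same construct and replicate number. Fh1 is at 46.9 and 47.6 CPM in EV after Ad-Cre and at 62.5 and 72.2 CPM with Ad-GFP, and Idh3b is lower after Ad-Cre in all 10 pairs.

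Deletion of Nelfb without an ectopic copy was read from EV with Ad-Cre against EV with Ad-GFP. Fumarase RNA fell to 0.701 of its level, and it was the only member to pass across all 13805 tested genes. In all, 7 of the 9 estimates were below 0, their median log2 fold change was -0.25, and the median of all tested genes was 0.0004 with 49.9% of genes below 0. The 1 call among 9 stands against 13.0% of all genes called in this comparison, 6.55% lower and 6.43% higher. Population libraries with the same replicate number deviated together from their group means, and with the replicate number as a block 6 of the 9 members passed, all lower, against 43.0% of all genes called (21.8% lower). DESeq2 called 2 members, Fh1 and Ogdh, against 12.4% of the genes it fitted. With only the compared groups in the edgeR fit, no member passed.

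Citrate synthase, the entry enzyme, was at 234 and 213 CPM in EV with Ad-GFP and at 217 and 165 CPM after Ad-Cre. The groups overlapped, since replicate 1 after Ad-Cre was above replicate 2 with Ad-GFP, and the log2 fold change was -0.23 (SE 0.22, adjusted p = 0.57). With the block it was -0.24 and passed (adjusted p = 0.0372). Without the block it ran from -0.45 without replicate 1 after Ad-Cre to -0.04 without replicate 2 after Ad-Cre. Leaving out 1 population library makes the replicate numbers unequal between the groups. Shifts in such fits, here and below, therefore cannot be told apart from the difference between replicate numbers.

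The 2 isocitrate dehydrogenase 3 subunits among the members had unlike estimates, a difference that was not tested. Idh3b, which codes for a non-catalytic subunit, was at 138 and 110 CPM with Ad-GFP and at 95.2 and 79.4 CPM after Ad-Cre, so that the groups did not overlap. Its log2 fold change of -0.51 (SE 0.18) missed the threshold at adjusted p = 0.0862 and passed with the block (-0.50, adjusted p = 2.15e-05). Idh3a, the catalytic subunit, was at 82.0 and 70.3 CPM with Ad-GFP and at 90.1 and 68.8 CPM after Ad-Cre. Its groups overlapped fully and the log2 fold change was 0.06 (SE 0.27, adjusted p = 0.922).

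In the 2-oxoglutarate dehydrogenase complex, Ogdh (the E1 component) was at 212 and 217 CPM with Ad-GFP and at 192 and 169 CPM after Ad-Cre. Both values after Ad-Cre lay below both with Ad-GFP, with a log2 fold change of -0.25 (SE 0.12) that missed the threshold (adjusted p = 0.223) and passed with the block (-0.25, adjusted p = 0.0177). Dlst (the E2 component, which carries lipoic acid) was at 134 and 140 CPM with Ad-GFP and at 153 and 134 CPM after Ad-Cre. Its groups overlapped, and its log2 fold change was 0.07 (SE 0.11, adjusted p = 0.768).

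Of the succinyl-CoA ligase subunits, Suclg1, the alpha subunit shared by the ATP-forming and GTP-forming enzymes, was at 70.4 and 52.7 CPM with Ad-GFP and at 51.3 and 42.1 CPM after Ad-Cre. The highest value after Ad-Cre lay just below the lowest with Ad-GFP, and the log2 fold change of -0.40 (SE 0.27, adjusted p = 0.401) passed with the block at -0.39 (adjusted p = 0.00329). With single libraries left out, the estimate without the block ran from -0.59 to -0.17 for Suclg1, lowest without replicate 2 and highest without replicate 1 with Ad-GFP. Sucla2, the beta subunit of the ATP-forming enzyme, was at 93.4 and 79.0 CPM with Ad-GFP and at 95.4 and 75.2 CPM after Ad-Cre. It overlapped fully, with a log2 fold change of -0.02 (SE 0.18, adjusted p = 0.974).

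Fumarase, which hydrates fumarate to malate, was at 62.5 and 72.2 CPM with Ad-GFP and at 46.9 and 47.6 CPM after Ad-Cre. The groups were well apart and the replicates after Ad-Cre were close, and Fh1 fell by 0.51 on the log2 scale (SE 0.12, adjusted p = 0.0157; with the block -0.51, adjusted p = 0.00013). When single libraries were left out, the call held without replicate 1 with Ad-GFP (-0.61, adjusted p = 0.0261) and was lost in the other 3 cases. The log2 fold change was then -0.51 without replicate 1 after Ad-Cre (adjusted p = 0.078), -0.52 without replicate 2 after Ad-Cre (adjusted p = 0.0844) and -0.41 without replicate 2 with Ad-GFP (adjusted p = 0.133). Mdh2, the last enzyme of the turn, was at 239 and 206 CPM with Ad-GFP and at 193 and 174 CPM after Ad-Cre. Its groups did not overlap, with a log2 fold change of -0.27 (SE 0.21, adjusted p = 0.449) that passed with the block (-0.27, adjusted p = 0.0186). With single libraries left out, the estimates without the block ran from -0.38 to -0.17 for Mdh2, from -0.35 to -0.16 for Ogdh and from -0.66 to -0.33 for Idh3b. Those of Mdh2 and Idh3b were lowest without replicate 2 and highest without replicate 1 with Ad-GFP, and those of Ogdh lowest without replicate 1 and highest without replicate 2 after Ad-Cre.

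By library, 5 members (Idh3b, Ogdh, Suclg1, Fh1 and Mdh2) had both EV values after Ad-Cre below both with Ad-GFP, and 0 had both above. Among all tested genes, 23.9% were lower and 24.5% higher in this sense.

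Whether ectopic wild-type NELFB kept these RNAs up was read from WT against EV, both after Ad-Cre, a comparison that shares its EV libraries with the one above. Fumarase again was the only member to pass: it was at 61.5 and 71.1 CPM in WT and at 46.9 and 47.6 CPM in EV, and rose by 0.49 on the log2 scale (SE 0.12, adjusted p = 0.0301). In all, 8 of the 9 estimates were above 0, with a median of 0.31 against -0.02 for all tested genes, and 8.00% of all genes were called (4.15% higher). With the block, 6 members passed as higher (Cs, Idh3b, Ogdh, Suclg1, Fh1 and Mdh2), against 40.1% of all genes called and 20.3% higher. No member passed with only the compared groups in the fit, or without the filter on low counts. Leaving out any 1 of the 4 libraries took the Fh1 call away, with log2 fold changes from 0.40 to 0.59 and adjusted p from 0.0687 to 0.209.

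Citrate synthase was at 250 and 222 CPM in WT after Ad-Cre, above both EV values of 217 and 165 CPM, with a log2 fold change of 0.31 (adjusted p = 0.449). Idh3b was at 117 and 102 CPM in WT against 95.2 and 79.4 CPM in EV (0.32, adjusted p = 0.301), and Mdh2 was at 248 and 235 CPM against 193 and 174 CPM (0.40, adjusted p = 0.269). Suclg1 was at 70.2 and 60.8 CPM in WT and at 51.3 and 42.1 CPM in EV, a log2 fold change as large as that of Fh1 but with an SE of 0.27 (0.49, adjusted p = 0.309). These 4 and Ogdh and Fh1 had both WT values above both EV values, which held for 26.7% of all genes. Idh3a (87.5 and 75.1 CPM in WT, 90.1 and 68.8 CPM in EV) and Sucla2 (91.9 and 82.9 CPM, 95.4 and 75.2 CPM) overlapped. Dlst alone had the reverse order, with 133 and 128 CPM in WT below 153 and 134 CPM in EV, which 27.2% of all genes shared. Its log2 fold change was -0.13. With single libraries left out, the estimates ran from 0.12 to 0.52 for Cs, from 0.20 to 0.47 for Idh3b, from 0.11 to 0.31 for Ogdh and from -0.23 to -0.03 for Dlst. Those of the first 3 were lowest without EV replicate 2 and highest without EV replicate 1.

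Within the WT line itself, Ad-Cre moved the members little: Fh1 was at 67.1 and 73.4 CPM with Ad-GFP and 61.5 and 71.1 CPM with Ad-Cre, and Idh3b at 132 and 121 CPM and 117 and 102 CPM. edgeR's quasi-likelihood test called 0 of the 9 (0 at unadjusted p under 0.05, 0 by DESeq2), against 0.0217% of all genes, and 0 with the block, against 5.61%. The difference itself, the Ad-Cre effect in WT minus that in EV, was 0.43 for Fh1 (SE 0.17, adjusted p = 0.339) on the log2 scale. No member passed it in edgeR (1 at unadjusted p under 0.05, 0 by DESeq2; 0.681% of all genes called). With the block, 3 did: Fh1 (0.42, adjusted p = 0.0216), Idh3b (0.29, adjusted p = 0.0481) and Suclg1 (0.41, adjusted p = 0.0428), against 17.3% of all genes.

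The mutants that lose NELFA and NELFC or NELFE binding were set against EV in the same way, again with the shared EV libraries. Fh1 lay between EV and WT after Ad-Cre, at 59.98 and 58.0 CPM in MT194, 57.2 and 53.7 CPM in MT486 and 53.3 and 56.0 CPM in DMT. All 6 values were above both EV values and below both WT values, and the share of all genes with this order is not given. Idh3b was at 95.7 and 81.1 CPM in MT194, 106 and 87.3 CPM in MT486 and 94.3 and 75.9 CPM in DMT, overlapping EV in each. No member passed against EV in edgeR, whose calls among all genes were 0.225% for MT194, 0.362% for MT486 and 0.00724% for DMT. At unadjusted p under 0.05 there were 2, 0 and 0 members, and DESeq2 called 1 (Ogdh, against 1.50% of the genes it fitted), 0 and 0. Shares of all genes at an unadjusted p under 0.05 are not given for any comparison. Counts at that threshold are therefore not read as results about the members or lists. With the block, Fh1 (0.32, adjusted p = 0.0188) and Ogdh (0.31, adjusted p = 0.0174) passed in MT194 (13.1% of all genes). Mdh2 passed in MT486 (0.33, adjusted p = 0.0169; 17.9%), and 0 members passed in DMT (0.413%).

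Against WT after Ad-Cre, 0 members passed for MT194 (1.41% of all genes), MT486 (0.109%) or DMT (3.06%) in edgeR, with 0, 0 and 1 at unadjusted p under 0.05 and 0 in each by DESeq2. With the block, Idh3b (-0.31), Mdh2 (-0.27) and Suclg1 (-0.31) were lower in MT194 than in WT (22.2% of all genes). Idh3b (-0.37), Mdh2 (-0.34), Fh1 (-0.28) and Suclg1 (-0.27) were lower in DMT than in WT (28.0%). With the block, 0 members passed for MT486 against WT (9.89%) or for MT486 against MT194 (4.66%; 0.0724% without the block, where 0 members passed in edgeR, 0 at unadjusted p under 0.05 and 0 by DESeq2). With Ad-GFP, when the floxed allele was intact, edgeR called 0 members between EV and each of the 4 other lines (0 at unadjusted p under 0.05, 0 by DESeq2), and at most 0.00724% of all genes were called.

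Within each mutant line, Idh3b was the member with the lowest estimate after Ad-Cre against Ad-GFP. It was at 127 and 108 CPM with Ad-GFP in MT194, 132 and 111 CPM in MT486 and 133 and 117 CPM in DMT, each pair above the matching values after Ad-Cre. The log2 fold changes were -0.41 in MT194 (adjusted p = 0.276), -0.33 in MT486 and -0.55 in DMT (adjusted p = 0.0698); those of Fh1 were -0.26, -0.20 and -0.34 (adjusted p = 0.101 in DMT). edgeR called 0 members in each of the 3 lines, against 4.49%, 2.54% and 10.8% of all genes, with 1, 0 and 2 at unadjusted p under 0.05; DESeq2 called 0, 0 and 2 (Fh1 and Idh3b in DMT, against 11.0% of the genes it fitted). With the block, Idh3b and Fh1 passed in MT194 (26.7% of all genes), Idh3b in MT486 (23.2%) and Idh3b and Fh1 in DMT (40.7%). For MT194, MT486 and DMT, the difference of the Ad-Cre effect from that in EV was called for 0 members by edgeR (0 at unadjusted p under 0.05, 0 by DESeq2), with 0.00724% of all genes called in each.

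**Figure D2:**
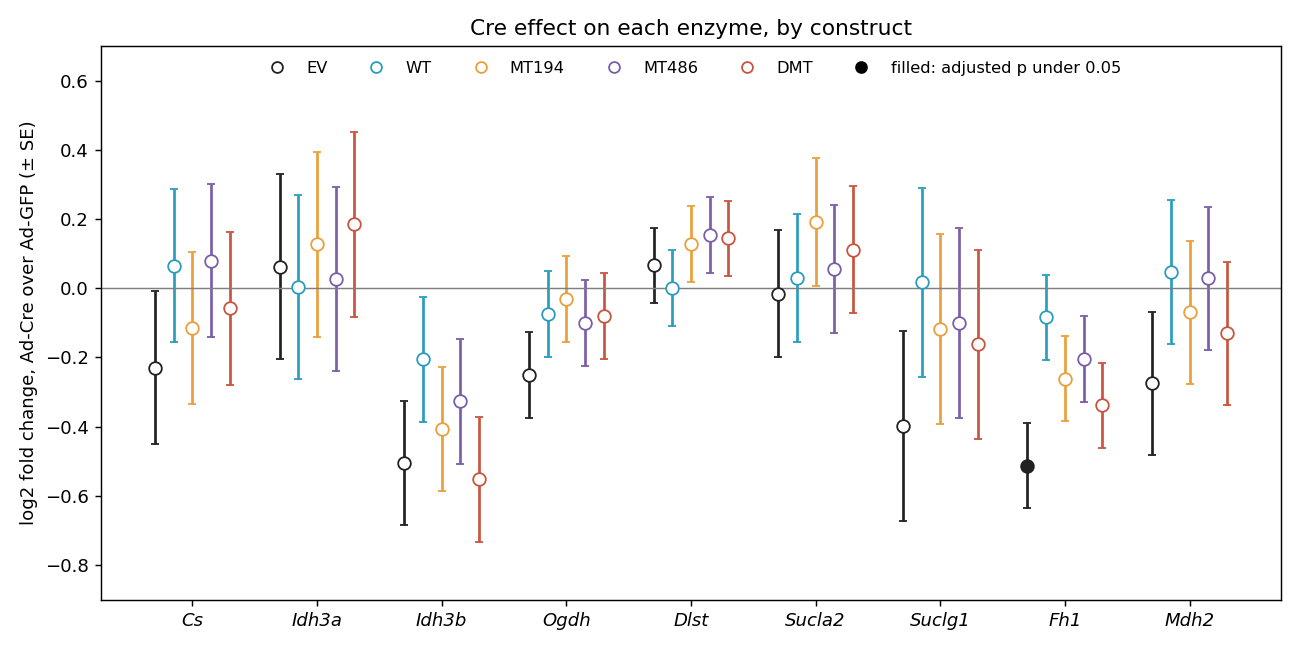
Log2 fold change of each member, Ad-Cre against Ad-GFP, in the 5 lines, with bars of 1 SE from edgeR (2 libraries a group); a filled point passed at an adjusted p under 0.05 over all tested genes. Fh1 in EV (-0.51) is the only filled point, and Idh3b and Fh1 lie below 0 in all 5 lines.

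Averaged over the 5 lines with equal weight, a contrast added after these values were seen, 2 members were lower after Ad-Cre: Idh3b by a log2 fold change of -0.40 (SE 0.08, adjusted p = 0.0019) and Fh1 by -0.28 (SE 0.06, adjusted p = 0.00154). In this contrast 34.3% of all genes were called, and 17.4% of all genes were lower. Both were lower after Ad-Cre in 10 of 10 pairs, from -0.63 to -0.17 for Idh3b and from -0.60 to -0.05 for Fh1. Ogdh and Suclg1 were lower in 9 pairs, Mdh2 in 8, Cs in 7, Idh3a in 4, and Dlst and Sucla2 in 2. The pairs are the same libraries as in the averaged contrast and add no separate evidence. Shares of all genes with such counts of pairs are not given, so these counts are not read as particular to the members. With the block 5 members passed (61.0% of all genes): Fh1, Idh3b, Ogdh (-0.11, adjusted p = 0.0146) and Suclg1 (-0.15, adjusted p = 0.00532) lower, and Dlst higher (0.10, adjusted p = 0.015). Leaving out each of the 20 libraries in turn kept both Fh1 and Idh3b among the calls, and DESeq2 called these and Ogdh lower and Dlst higher (27.4% of the genes it fitted).

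The list of other cycle enzymes held 10 genes, with Ogdhl and Dhtkd1 counted in it as relatives of cycle enzymes. All 10 were below 0 in EV after Ad-Cre, with a median log2 fold change of -0.52. Of the 10, 3 fell, where 13.0% of all genes were called and 6.55% were lower. Idh3g, the partner subunit of Idh3a and Idh3b, was at 52.5 and 55.3 CPM with Ad-GFP and at 33.3 and 37.5 CPM after Ad-Cre (lowest and highest), a log2 fold change of -0.61 (SE 0.12, adjusted p = 0.00628). Sdha, the flavoprotein of succinate dehydrogenase, fell from 269 and 291 CPM to 201 and 208 CPM (-0.46, adjusted p = 0.0342), and Ogdhl, a relative of Ogdh, from 10.9 and 12.4 CPM to 6.49 and 7.58 CPM (-0.73, adjusted p = 0.0192). The values for the rest included -0.74 for Suclg2 (adjusted p = 0.121) and -0.70 for Sdhc (adjusted p = 0.207). With the block 8 of the 10 passed, all lower, against 21.8% of all genes lower. The Idh3g, Sdha and Ogdhl calls were lost when single libraries were left out: Idh3g without replicate 2 after Ad-Cre (adjusted p = 0.0752), Ogdhl without either library after Ad-Cre or replicate 2 with Ad-GFP (up to 0.124) and Sdha without any 1 of the 4 (up to 0.178).

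The cytosolic counterparts of the cycle enzymes had a list median of -0.60. Of 5 cytosolic counterparts, 3 fell in EV, against 6.55% of all genes lower and 13.0% called in either direction. Idh1, the cytosolic NADP-dependent isocitrate dehydrogenase, fell from 189 and 257 CPM to 30.4 and 62.3 CPM (log2 fold change -2.27, adjusted p = 0.00188). ATP-citrate lyase (Acly), which cleaves exported citrate, fell from 526 and 599 CPM to 236 and 253 CPM (-1.20, adjusted p = 0.00246). Cytosolic aconitase (Aco1) fell from 163 and 169 CPM to 113 and 114 CPM (-0.54, adjusted p = 0.00928). The groups of all 3 were far apart. The citrate carrier Slc25a1 was the 1 gene of 6 carriers to fall, from 80.7 and 110 CPM to 41.7 and 55.1 CPM (-0.97, adjusted p = 0.032). Idh1 and Acly passed without each library in turn, while Slc25a1 (adjusted p up to 0.224) and Aco1 (up to 0.068) did not pass without either library after Ad-Cre or replicate 1 with Ad-GFP.

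Of 9 enzymes that feed or drain the cycle in the matrix, 4 fell in EV, against 13.0% of all genes called, 6.55% lower and 6.43% higher. Pyruvate carboxylase (Pcx), which makes oxaloacetate from pyruvate, fell by 1.16 on the log2 scale, from 154 and 219 CPM to 77.2 and 89.4 CPM. Idh2, the mitochondrial NADP-dependent enzyme, fell by 1.06, from 259 and 317 CPM to 114 and 162 CPM. The transhydrogenase Nnt fell by 0.77 and the aspartate aminotransferase Got2 by 0.43. When single libraries were left out, the Nnt call held each time and that of Got2 was lost each time (adjusted p up to 0.328). The Pcx call was lost without either library after Ad-Cre or replicate 2 with Ad-GFP (up to 0.112), and that of Idh2 without replicate 2 after Ad-Cre or replicate 1 with Ad-GFP (up to 0.117). Among 12 genes of pyruvate entry, the kinases Pdk1 and Pdk4, which inhibit pyruvate dehydrogenase, rose by 0.91 (56.3 and 73.6 CPM to 115 and 129 CPM) and by 0.68, and the phosphatase Pdp2, which activates it, fell by 1.03. The Pdp2 call held without each library, that of Pdk4 was lost each time (adjusted p 0.0892 to 0.204), and that of Pdk1 without replicate 1 after Ad-Cre or replicate 2 with Ad-GFP (up to 0.116). The 9 tested genes of lipoylation (median 0.04) and the 4 of complex II assembly (median 0.26) had 0 calls in edgeR, with 1 gene in each at unadjusted p under 0.05.

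For mitochondrial mass and import, 3 of 24 genes fell in EV, where 6.55% of all genes were lower and 13.0% called in either direction: the coactivators Ppargc1b (-1.44) and Ppargc1a (-1.05), which drive mitochondrial gene expression, and the import motor subunit Timm44 (-0.43). The list's median was 0.01, next to -0.25 for the members and -0.52 for the other cycle enzymes.

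**Figure D3:**
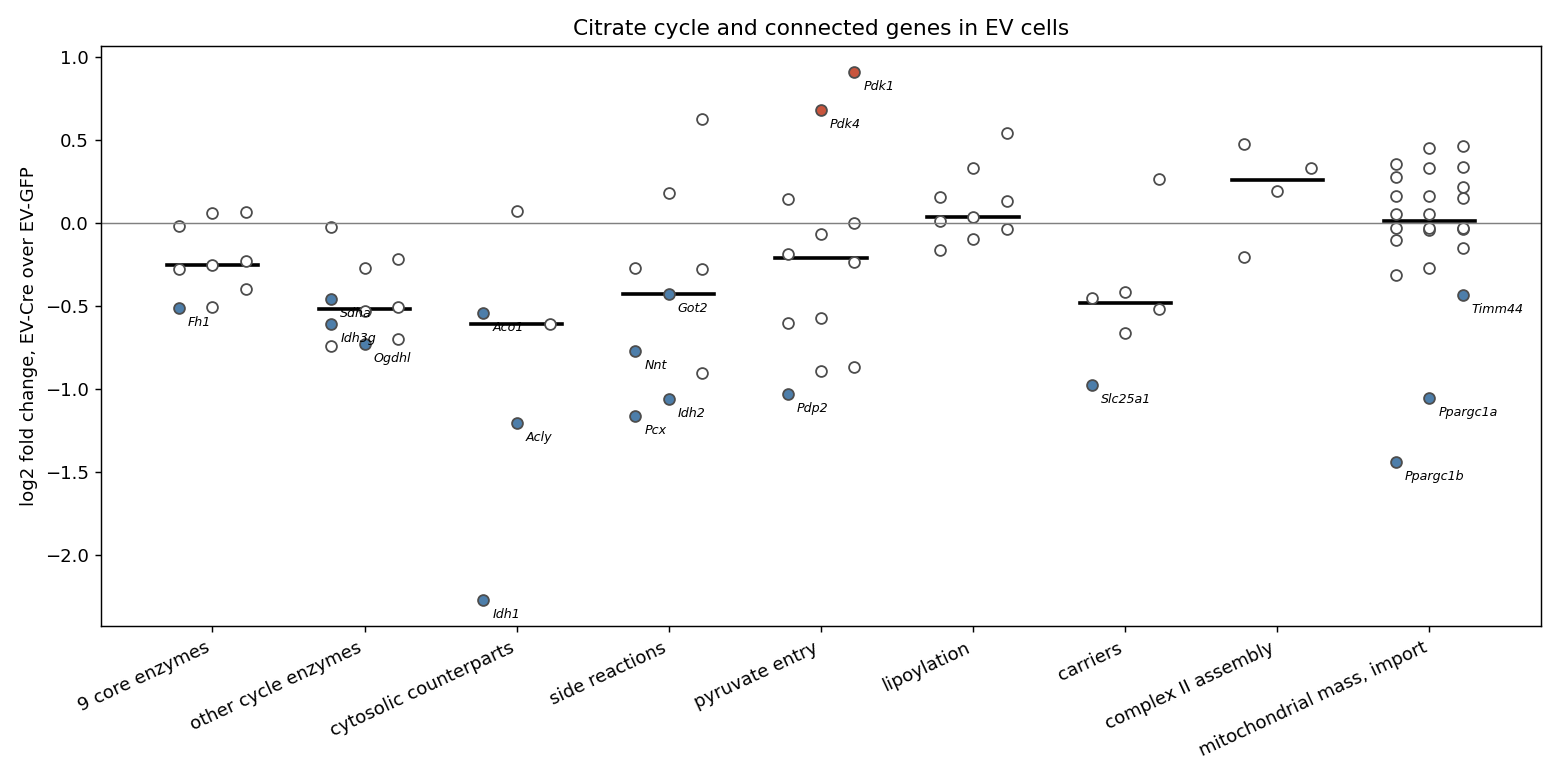
Log2 fold change in EV, Ad-Cre against Ad-GFP, of every tested gene in each list; filled points passed at an adjusted p under 0.05 over all tested genes and the bar is the list's median. The members sit between 0.07 and -0.51 (median -0.25), the other cycle enzymes lie wholly below 0 (median -0.52), and Idh1 (-2.27) and Acly (-1.20) lie far below.

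In WT against EV after Ad-Cre, which shares EV libraries with the comparison above, the same lists gave these values. Of the other cycle enzymes, Idh3g passed, at 0.59 (adjusted p = 0.0118; 52.1 and 54.5 CPM in WT), 9 of 10 were above 0 and the median was 0.37, where 8.00% of all genes were called (4.15% higher). With the block 8 passed, all higher, where 40.1% of all genes were called (20.3% higher). Idh1 (1.68), Acly (0.75) and Aco1 (0.49) were higher in WT, as were Pcx (0.94), Idh2 (0.88), Nnt (0.69), Pdp2 (0.73) and Ppargc1b (0.80), whereas Pdk1 (-0.76) and Pdk4 (-0.99) were lower. With single libraries left out, the calls of Acly (adjusted p up to 0.268), Aco1 (0.165), Pcx (0.239) and Pdk1 (0.284) were lost each time. Those of Idh1 (up to 0.168), Idh2 (0.323), Pdk4 (0.104) and Idh3g (0.141) held only without EV replicate 1, that of Pdp2 (0.135) only without WT replicate 1, and that of Nnt (0.0815) without either replicate 1. No gene of lipoylation, carriers or complex II assembly passed. In WT after Ad-Cre, Idh1 was at 138 and 158 CPM, between the EV values with and without Cre, and Idh2 was at 244 and 265 CPM, above EV after Ad-Cre and overlapping EV with Ad-GFP.

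In the mutant lines, Ad-Cre against Ad-GFP called 0 of the 10 other cycle enzymes in MT194 and in MT486 and 1 in DMT (Idh3g, -0.57, adjusted p = 0.01), where 1, 3 and 4 had an unadjusted p under 0.05, with medians of -0.24, -0.29 and -0.37 beside -0.12 in WT. With the block, 5, 5 and 7 passed, all lower, where 26.7%, 23.2% and 40.7% of all genes were called in either direction (13.8%, 12.4% and 20.8% lower). Averaged over the 5 lines, 8 of the 10 were lower (median -0.32; 17.4% of all genes were lower), all but Dld, the E3 component, and Sdhb, the iron-sulfur subunit of succinate dehydrogenase.

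Markers of contractile cells and of growth moved in these libraries too. The 5 smooth muscle markers summed to 55.3 and 42.8 CPM in EV with Ad-GFP and to 293 and 263 CPM after Ad-Cre. All 3 that were tested rose (Acta2 2.93, Cnn1 2.28 and Tagln 2.22 on the log2 scale), where 6.43% of all genes were called higher and 13.0% in either direction. In WT the 5 markers summed to 59.4 and 39.7 CPM and to 146 and 146 CPM. The 14 proliferation genes summed to 1136 and 1563 CPM in EV with Ad-GFP and to 1143 and 801 CPM after Ad-Cre, with 1 called (Ccnb1, -1.30). That 1 call among 14 stands beside 6.55% of all genes called lower. In WT after Ad-Cre the 14 genes summed to 1735 and 1936 CPM. Ccnb1 (1.79), Birc5 (1.42) and Top2a (1.18) were higher there than in EV, where 4.15% of all genes were called higher and 8.00% in either direction. The fibroblast marker S100a4 fell in EV by 1.47, from 41.0 and 63.4 CPM to 17.8 and 19.96 CPM. The summed fibroblast markers given above overlapped between Ad-GFP and Ad-Cre in EV. The contractile markers and S100a4 thus differed between the same EV libraries as Fh1, and their part in the results on the cycle was not tested.

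Among the clones, citrate synthase was the member whose group means lay furthest apart. Cs was at 270, 255 and 295 CPM in the clones labelled WT, 232, 322 and 223 CPM in MT194, 516, 493 and 317 CPM in MT486, 494, 475 and 393 CPM in WT(N48), and 464, 512 and 467 CPM in Δ-C60. Every MT486, WT(N48) and Δ-C60 clone stood above every clone labelled WT, and MT194 clones overlapped both the WT clones and the lowest MT486 clone. Shares of all genes that separate clone groups in this way are not given, here or for the members below. Δ-C60 against WT clones gave a log2 fold change of 0.82 for Cs (SE 0.20, adjusted p = 0.0287), and MT194 against WT(N48) clones gave -0.81 (SE 0.20, adjusted p = 0.0362).

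**Figure D4:**
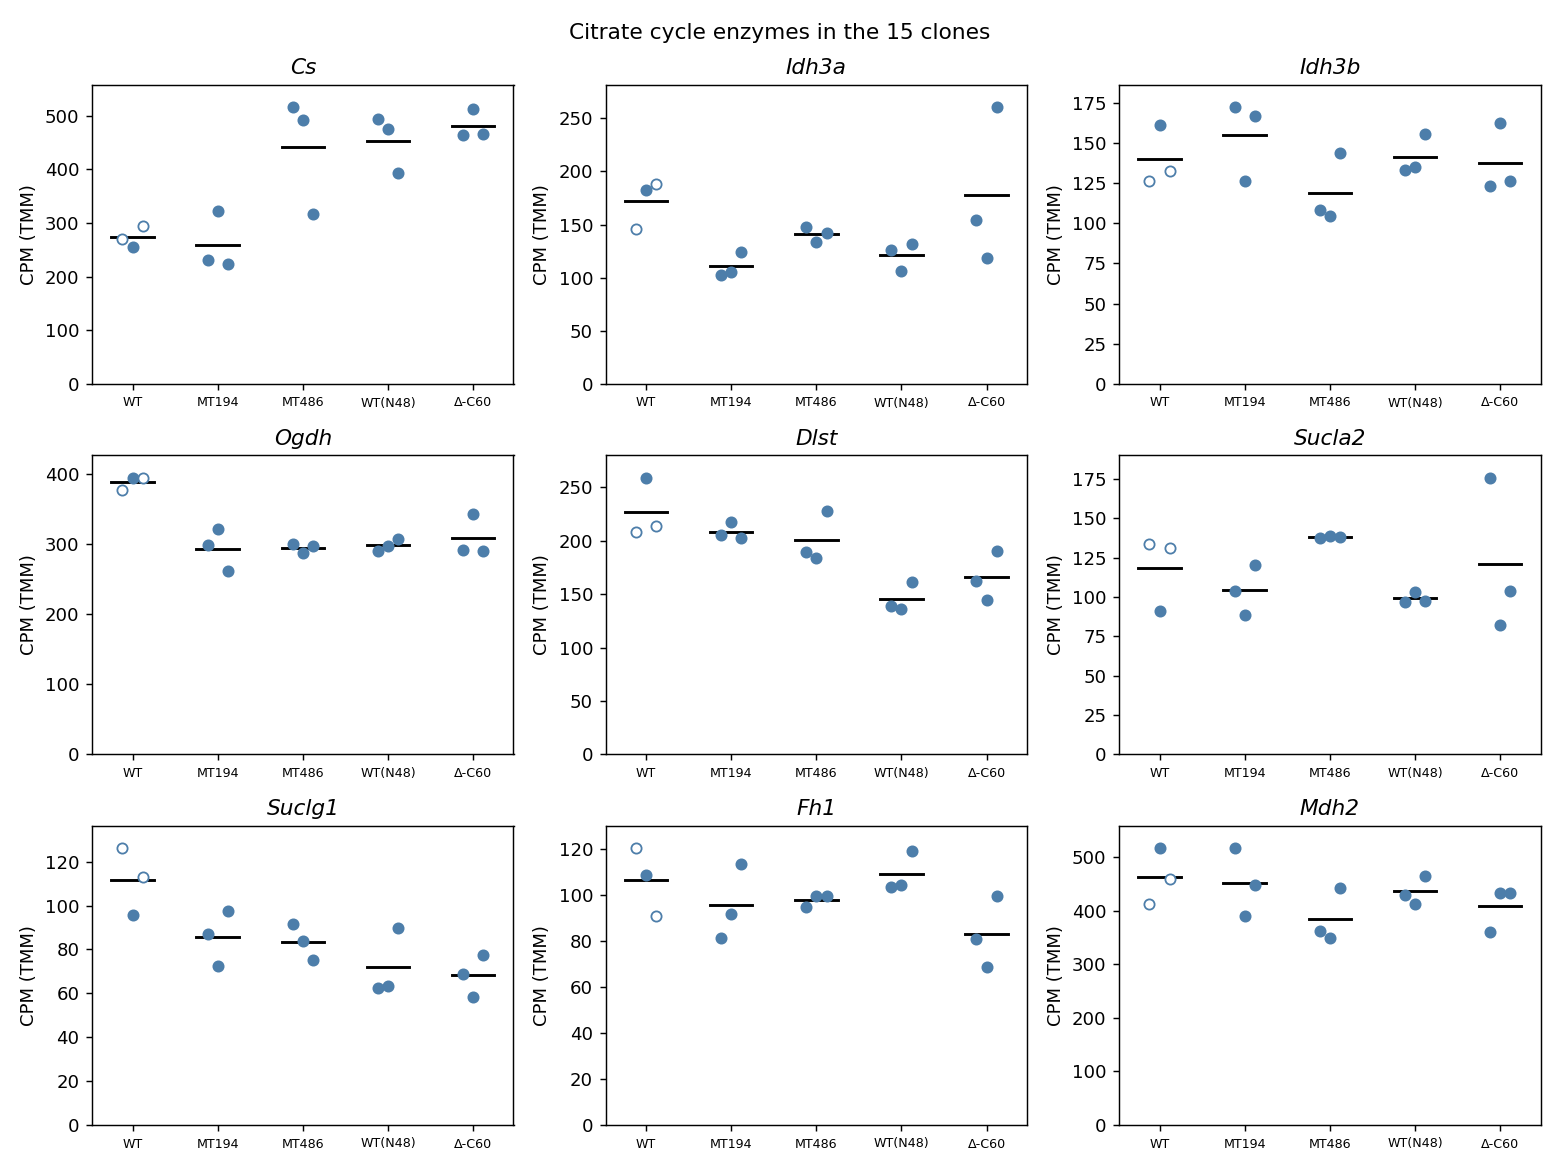
Levels of the 9 members in the 15 clones, in CPM after TMM scaling on a linear axis from 0, by group; points are single clones, bars are means of 3 clones, and open points are the clones labelled WT with low Nelfb RNA. Cs is at 393 CPM or more in all WT(N48) and Δ-C60 clones and at 322 CPM or less in all WT and MT194 clones, and the mean of Suclg1 and of Dlst is highest in the WT clones.

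Δ-C60 against WT clones called 2 members, against 8.38% of all 13223 tested genes: Cs higher, and Suclg1 lower by a log2 fold change of -0.71 (SE 0.19, adjusted p = 0.0376). DESeq2 added Dlst and Ogdh, both lower (11.0% of the genes it fitted). Suclg1 was at 126, 95.5 and 113 CPM in WT and at 68.9, 58.1 and 77.3 CPM in Δ-C60 clones, with no overlap. Without WT clones 1 and 3, Cs was at 0.89 (adjusted p = 0.351) and Suclg1 at -0.52 (adjusted p = 0.472), with 1 WT clone left, assumed to vary like the other groups. No member passed when WT clone 1, 2 or 3 was left out, and 1 passed without Δ-C60 clone 1, with adjusted p up to 0.11 for Cs and 0.129 for Suclg1. Over the 6 clones left out in turn, the Cs call held in 3 cases and the Suclg1 call in 1. By their labels, WT and Δ-C60 clones also differ in vector, which cannot then be told apart from the construct. The same holds for MT194 and MT486 against WT(N48) clones, and WT(N48) and WT clones differ in vector too. With MT486 clones 1 and 2 summed as 1 library, Cs passed (adjusted p = 0.045) and Suclg1 did not (adjusted p = 0.0513).

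WT(N48) against WT clones, both labelled as carrying wild-type NELFB, called 1 member against 2.10% of all genes: Dlst was lower, at 139, 136 and 161 CPM against 208, 259 and 214 CPM (-0.64, SE 0.15, adjusted p = 0.0481). The groups did not overlap, but the adjusted p was 0.454 without WT clones 1 and 3 (-0.85) and reached 0.167 when single clones were left out (-0.74 to -0.55); no member passed without any 1 of WT clones 1, 2 and 3 or WT(N48) clones 1 and 2, and 2 passed without WT(N48) clone 3. With MT486 clones 1 and 2 summed, the adjusted p of Dlst was 0.0692. Cs (0.73, adjusted p = 0.0717) and Suclg1 (-0.63, adjusted p = 0.0891; 62.4, 63.2 and 89.9 CPM in WT(N48)) had estimates close to those of Δ-C60, and DESeq2 called 4 members (6.12% of the genes it fitted). Δ-C60 against WT(N48), labelled with the same vector, called 0 members (0.00% of all genes) in edgeR, with 2 at unadjusted p under 0.05 and 0 by DESeq2.

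MT194 against WT(N48) clones called Cs alone, against 5.86% of all genes, and its adjusted p reached 0.149 when single clones were left out; no member passed without MT194 clone 1 or 3 or WT(N48) clone 1 or 2, and 2 passed without WT(N48) clone 3. With MT486 clones 1 and 2 summed, the adjusted p of Cs was 0.0547. In edgeR, 0 members passed for MT194 against WT (2.91% of all genes; 2 at unadjusted p under 0.05, 1 by DESeq2, Ogdh, against 6.18% of the genes it fitted), MT486 against WT (0.00%; 3 and 0), MT486 against WT(N48) (0.287%; 1 and 0) and MT486 against MT194 (0.348%; 1 and 1, Cs, with 4.25% of genes called by DESeq2; 1 by edgeR without MT486 clone 3). DESeq2 called Cs lower and Dlst higher in MT194 than in WT(N48) clones (9.54% of the genes it fitted). Ogdh was at 376, 394 and 393 CPM in the clones labelled WT, and WT clone 2 alone was at 394 CPM. In the 12 other clones it was between 261 and 343 CPM, without overlap. The edgeR fit of all clones called Ogdh in no comparison, and the share of all genes that separate in this way is not given. Without WT clones 1 and 3, edgeR again called 0 members for MT194 and MT486 against WT (2 and 1 at unadjusted p under 0.05). With MT486 clones 1 and 2 summed, 0 members passed in any comparison with MT486, and the genes called in all were 0 against WT, 4 against WT(N48) and 0 against MT194, where 0, 38 and 46 were called before. Idh3b, lower after Ad-Cre in every population pair, ranged over 127 to 161 CPM in WT, 126 to 172 CPM in MT194, 105 to 144 CPM in MT486, 133 to 156 CPM in WT(N48) and 123.4 to 162.6 CPM in Δ-C60 clones, all overlapping. Fh1 ranged from 68.8 CPM (Δ-C60 clone 2) to 120 CPM (WT clone 1), and Mdh2 from 349 to 517 CPM. Sucla2 and Idh3a each had 1 Δ-C60 clone apart from the others, at 176 against 82.5 and 104 CPM and at 261 against 154 and 119 CPM.

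Of the other cycle enzymes, Δ-C60 against WT clones called Idh3g (-0.74) and Suclg2 (-0.77) lower (8.38% of all genes called), and MT194 against WT called Sdha lower (-0.56; 2.91% of all genes). Among connected genes, Δ-C60 against WT called Mdh1 (-0.65), Got2 (-0.94), the carrier Slc25a13 (-1.10), Fdx1 (-0.81) and Iba57 (-1.10) of iron-sulfur and lipoyl maturation, and Phb (-0.65) lower, and malic enzyme Me1 (0.71) higher. Without WT clones 1 and 3, 0 of the 15 listed genes called for Δ-C60 and 0 of the 7 called for MT194 against WT passed, members included, and all kept their sign (adjusted p 0.316 to 0.538 and 0.225 to 0.365). With MT486 clones 1 and 2 summed, 10 of these 15 and 1 of these 7 passed, and of the genes named above, the calls of Sdha (adjusted p = 0.0749) and Fdx1 (adjusted p = 0.0576) were lost. The smooth muscle markers summed to 732, 96.4 and 5181 CPM in Δ-C60 clones, 2172, 1065 and 57.1 CPM in WT(N48) clones and 87.7, 92.7 and 82.6 CPM in WT clones, far apart within the first 2 groups and close within WT; their part in the clone results was not tested.

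Across the 10 population groups all 9 members varied less than the median gene. The ratio of the highest to the lowest group mean was 1.17 for Idh3a, 1.18 for Dlst, 1.20 for Sucla2, 1.24 for Cs, 1.26 for Ogdh, 1.32 for Mdh2, 1.40 for Suclg1, 1.48 for Idh3b and 1.497 for Fh1, beside 1.52 for the median tested gene. EV after Ad-Cre was the lowest group for 5 of the 9 (Cs, Ogdh, Suclg1, Fh1 and Mdh2). Over the 5 clone groups the ratios ran from 1.20 for Mdh2 to 1.86 for Cs, beside a median of 1.70. Both medians cover all tested genes and were not matched to the abundance of the members.

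The mean profile of the members over the 10 groups, in log2 CPM centred on each gene's own mean, was lowest in EV after Ad-Cre (-0.17) and highest in WT with Ad-GFP (0.09). Among the 9431 genes that averaged 10 CPM or more, Dnttip1 lay nearest to it, with a root-mean-square difference of 0.0231 log2 units, followed by Nfatc3 (0.0314), Actr1a (0.0315), Arpc3 (0.0323) and Trpc4ap (0.0329); the median gene lay at 0.164. The members themselves lay between 0.0383 (Cs) and 0.168 (Idh3b). Over the 5 clone groups the same 5 genes lay at 0.236, 0.112, 0.178, 0.162 and 0.143 from the members' mean, beside a median of 0.246.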

How the data were processed

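The authors deposited 1 table of counts per library: reads of 50 bases from poly(A) RNA, aligned by them with Bowtie2 to mm10 and counted per gene with HTSeq after reads under a mapping quality of 30 were skipped. Bowtie2 is not splice-aware, so reads across exon junctions can be lost; tool versions are not given in the sources used here, and the rows for unassigned reads were left out (no-feature rows were 11.7% to 21.3% of reads in populations and 9.14% to 12.0% in clones). From the deposited counts, populations and clones were fitted apart with edgeR 4.0.16 (limma 3.58.1, R 4.3.3): filterByExpr, TMM, a robust quasi-likelihood fit with 1 mean a group, Benjamini-Hochberg adjustment over 13805 and 13223 genes, and calls at an adjusted p under 0.05. All 9 members passed the filter in both. DESeq2 1.42.0 was an alternative. SE is the absolute log2 fold change over the square root of F.

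The titles name biological replicates. Equal replicate numbers paired the populations: deviations from group means correlated above 0.1 in 45 of 45 pairs of groups (0.420 to 0.730). No 2 libraries of a group agreed within sampling noise, but MT486 clones 1 and 2 were far closer than any other pair. They were kept as 2 samples, and summed as 1 in an alternative chosen after seeing the data. On simulated counts, 43% of genes changed by a log2 fold change of 1 and 90% by 2 were recovered for EV (13636 genes, 7 false calls), and 27% and 80% for MT194 against WT clones (13095 genes, 7 false calls). The members and lists were chosen with earlier results of these data known. Named genes are the NELF subunits, the members, up to 6 called genes of each list by absolute log2 fold change, each list's most abundant gene, and the 5 genes nearest the members' mean profile; other genes were named after their values were seen. The values of 1 enzyme in a list are not reported here.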

Additional observations from a re-analysis of the deposited data

Results flagged for a closer look

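The Ad-Cre effect on Nelfb differed between the 4 lines with ectopic NELFB and EV by the interaction test in edgeR: by 2.27 log2 units in WT (adjusted p = 0.00574), 3.38 in MT194 (adjusted p = 0.000449), 3.18 in MT486 (adjusted p = 0.00089) and 4.15 in DMT (adjusted p = 4.26e-05). Nelfb counts in those lines include the ectopic RNA, and without overlap the level after Ad-Cre was above that with Ad-GFP in DMT (169 and 208 CPM against 73.5 and 61.6 CPM), MT194 (104 and 119 against 74.0 and 62.1 CPM) and MT486 (116 and 128 against 92.9 and 78.6 CPM), and below it in WT (75.9 and 60.5 against 97.5 and 82.8 CPM). The fibroblast marker S100a4 also differed between WT and EV, by 1.62 (adjusted p = 0.0485): its mean went from 52.2 to 18.9 CPM in EV and from 50.8 to 56.7 CPM in WT. No member of the cycle was among these differences, which come from the fit without the replicate block. With the block, the difference of WT from EV passed for Fh1 (adjusted p = 0.0216), Idh3b (adjusted p = 0.0481) and Suclg1 (adjusted p = 0.0428). There 17.3% of all genes were called.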

How the results depend on the processing

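Counts of members called moved with the replicate block, whose numbers pair the populations. With the block they were 6 for the Ad-Cre effect in EV, 2 in MT194, 1 in MT486 and 2 in DMT; 6 for WT against EV after Ad-Cre, 2 for MT194 and 1 for MT486 against EV; 3 for the difference of WT from EV; 3 for MT194 and 4 for DMT against WT; and 5 for the average of 5 lines. It changed no other count in the populations. The clones share only a number (over 0.1 in 3 of 30 pairs of groups, median -0.0146); there the block left 0 members for WT(N48) against WT. DESeq2 called 2 in EV, 2 in DMT, 1 for MT194 against EV, 4 for the average, 4 for Δ-C60 and 4 for WT(N48) against WT clones, 1 for MT194 against WT clones, 2 for MT194 against WT(N48) and 1 for MT486 against MT194. With only the compared groups in the fit, 0 passed in EV, for WT against EV, for Δ-C60 against WT and for MT194 against WT(N48). Without the filter on low counts, 0 passed for WT against EV and for WT(N48) against WT. Asking also for an absolute log2 fold change over 0.5 left 0 for WT against EV (7.37% of all genes called) and 0 for the average (16.7%). Without WT clones 1 and 3, a choice made after seeing the data, 0 passed for Δ-C60 and for WT(N48) against WT. With MT486 clones 1 and 2 summed, also chosen after seeing the data, 1 passed for Δ-C60 against WT, 0 for WT(N48) against WT and 0 for MT194 against WT(N48). The cause was not tested for any of these. Shares of all genes called are not given for fits with only the compared groups, without the filter, or with libraries left out or summed. They are also not given for counts at an unadjusted p under 0.05, for counts of pairs or for clone groups that did not overlap. All those counts are therefore not read as particular to the members.

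Leaving out 1 library at a time gave 0 to 1 members in EV, 0 in every case for WT against EV, 2 in all 20 cases for the average, and, in clones, 0 to 2 for Δ-C60 against WT, 0 to 2 for WT(N48) against WT, 0 to 2 for MT194 against WT(N48) and 0 to 1 for MT486 against MT194. The leave-one-out fits of the populations had no block, and each left the replicate numbers unequal between groups. Small estimates changed sign. In EV, Dlst ran from -0.0393 to 0.1598; Idh3a ran from -0.15 to 0.2434, and was -0.05 without replicate 2 with Ad-GFP; and Sucla2 ran from -0.2021 to 0.15, and was 0.11 without replicate 1 with Ad-GFP. For WT against EV, Idh3a ran from -0.15 to 0.2442 (-0.08 without WT replicate 1) and Sucla2 from -0.13 to 0.2208 (-0.04 without WT replicate 1). Of the alternatives tried for counts of members, 302 gave the same result, 34 fewer and 23 more. This tally includes comparisons with 0 members called in the main fit, where fewer was not possible. It therefore does not show how stable the calls are. With single clones left out, the count stayed the same in 2 of 6 cases for Δ-C60 against WT. It did so in 0 of 6 for WT(N48) against WT and in 1 of 6 for MT194 against WT(N48). In the simulation for EV, 43% of genes changed by a log2 fold change of 1 were called, so smaller changes can be missed with 2 libraries a group.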
